A study of Mus musculus with 5 samples.

Results

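The Fc receptor genes examined here were Fcgr1, Fcgr2b, Fcgr3, Fcgr4, Fcer1g, Fcgrt, Fcer2a and Fcrls, 8 genes taken from a fixed list of names out of 18820 genes measured in the series. Each was represented by 1 probe set whose annotation gave a single gene symbol, so no choice between probe sets was needed. Liver RNA came from 2 samples of adult C57Bl/6 mice given M279, an antibody against CSF1R, and from 3 samples of mice of the same kind given rat IgG. Each injection was 300 µg into the peritoneal cavity, 3 times a week for 6 weeks. CSF1R is the receptor for the macrophage growth factors CSF1 and IL-34. Both groups therefore received an immunoglobulin for 6 weeks, and animals with no injected antibody were not analysed here. The labels do not say whether the samples came from separate animals, and p-values therefore reflect the spread of these 5 samples, which may be technical.

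Fc receptors bind the constant part of antibodies and pass the signal to the cell that carries them. Activating IgG receptors depend on the common gamma chain encoded by Fcer1g, whose activation motif recruits the kinase SYK, while FcγRIIB carries an inhibitory motif of its own and dampens the same pathway. In liver, Kupffer cells carry activating and inhibitory receptors, sinusoidal endothelial cells carry much FcγRIIB and clear small immune complexes with it, and the neonatal receptor FcRn returns IgG and albumin to the circulation instead of degrading them.

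Of the 8 genes, 4 (Fcgr2b, Fcgr4, Fcgr3 and Fcer1g, in this order) lie in one stretch of chromosome 1, 2 (Fcgr1 and Fcrls) lie on chromosome 3, Fcgrt lies on chromosome 7 and Fcer2a on chromosome 8, according to RefSeq on assembly GRCm38.p6. The 250 bases before the first listed start are shown for the activating receptors, the inhibitory receptor and the adaptor, which are set against each other below. Each is printed 5′ to 3′ on the strand of its gene. Capitals mark the letters GAGGAAG or their reverse complement CTTCCTC, which hold the GGAA core read by PU.1, an Ets family factor of macrophages. The GGAA core alone also occurs in unmarked letters, including in the windows of Fcgr2b and Fcer1g.
Fcgr4, chr1:171018676-171018925, plus strand: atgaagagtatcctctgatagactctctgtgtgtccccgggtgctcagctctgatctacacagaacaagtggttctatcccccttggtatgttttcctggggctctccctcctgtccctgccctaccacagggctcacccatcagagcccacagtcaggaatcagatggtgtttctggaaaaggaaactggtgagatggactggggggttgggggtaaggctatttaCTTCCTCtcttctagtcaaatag
Fcgr1, chr3:96293970-96294219, minus strand: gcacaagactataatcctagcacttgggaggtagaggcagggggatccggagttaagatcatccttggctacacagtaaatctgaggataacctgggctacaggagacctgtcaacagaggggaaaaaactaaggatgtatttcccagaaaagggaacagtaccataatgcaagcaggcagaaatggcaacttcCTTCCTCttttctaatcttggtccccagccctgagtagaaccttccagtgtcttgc
Fcgr3, chr1:171059404-171059653, minus strand: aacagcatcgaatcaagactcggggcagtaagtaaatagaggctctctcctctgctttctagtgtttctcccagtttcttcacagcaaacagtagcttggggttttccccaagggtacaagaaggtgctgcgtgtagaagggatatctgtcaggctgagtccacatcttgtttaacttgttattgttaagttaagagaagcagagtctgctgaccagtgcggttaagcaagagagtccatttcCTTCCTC
Fcgr2b, chr1:170976072-170976321, minus strand: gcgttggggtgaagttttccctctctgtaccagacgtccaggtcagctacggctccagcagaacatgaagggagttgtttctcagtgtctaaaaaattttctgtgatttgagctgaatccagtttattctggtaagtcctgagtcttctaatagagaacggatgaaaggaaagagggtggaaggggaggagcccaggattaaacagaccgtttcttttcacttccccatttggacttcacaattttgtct
Fcer1g, chr1:171234350-171234599, minus strand: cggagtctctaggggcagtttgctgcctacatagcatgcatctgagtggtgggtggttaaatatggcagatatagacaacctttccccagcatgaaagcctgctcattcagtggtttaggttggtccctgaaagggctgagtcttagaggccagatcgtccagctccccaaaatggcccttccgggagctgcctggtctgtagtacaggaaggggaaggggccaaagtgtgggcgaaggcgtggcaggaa
The letters occurred once in the windows of Fcgr4, Fcgr1 and Fcgr3, beginning 23, 56 and 7 bases before the start, each time as CTTCCTC. Fcrls held them 144 bases before its start, so 4 of the 8 genes had a match, and 10.4% of 27025 genes had one in the same window. Fcgr2b, Fcer1g, Fcgrt and Fcer2a had none. A match here describes the letters only.

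No Fc receptor gene passed an adjusted p of 0.05 between anti-CSF1R and control livers in limma (0 of 8, against 0% of 35556 probe sets). At an unadjusted p under 0.05 there were 2 lower genes, Fcgr4 and Fcgr1, against 8.4% of all genes, and 0 higher ones, against 9.91%. When limma was fitted to 1 probe set per gene, 0.0744% of genes passed and again 0 of the 8. The values are therefore given array by array, and groups are called apart where both anti-CSF1R arrays were under every control or above every control. The largest differences belonged to the activating receptors Fcgr4 and Fcgr1, whose geometric mean intensities in anti-CSF1R livers differed from those in control livers by -39.1% and -32.9%. The inhibitory receptor Fcgr2b differed by 13.5%, and the adaptor Fcer1g, at -6.53%, differed by less than its SE. Groups were apart in 2 lower genes (Fcgr4 and Fcgr1), against 19.5% of all genes, and in 2 higher genes (Fcgr2b and Fcgrt), against 25.1%. These background shares depended on brightness. Among 10488 genes at or above the median level of all probe sets, 32.6% were apart and lower and 8.64% apart and higher, and among 8332 dimmer genes 3.01% were apart and lower and 45.9% apart and higher. Fcgr4, Fcgr1, Fcgr2b and Fcgrt all belong to the 6 Fc receptor genes of the brighter set, where 2 were lower and 2 higher. The median difference over the 8 genes was -0.06 on the log2 scale, against 0.04 over all genes, -0.10 over the brighter genes and 0.17 over the dimmer ones.

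**Figure D1:**
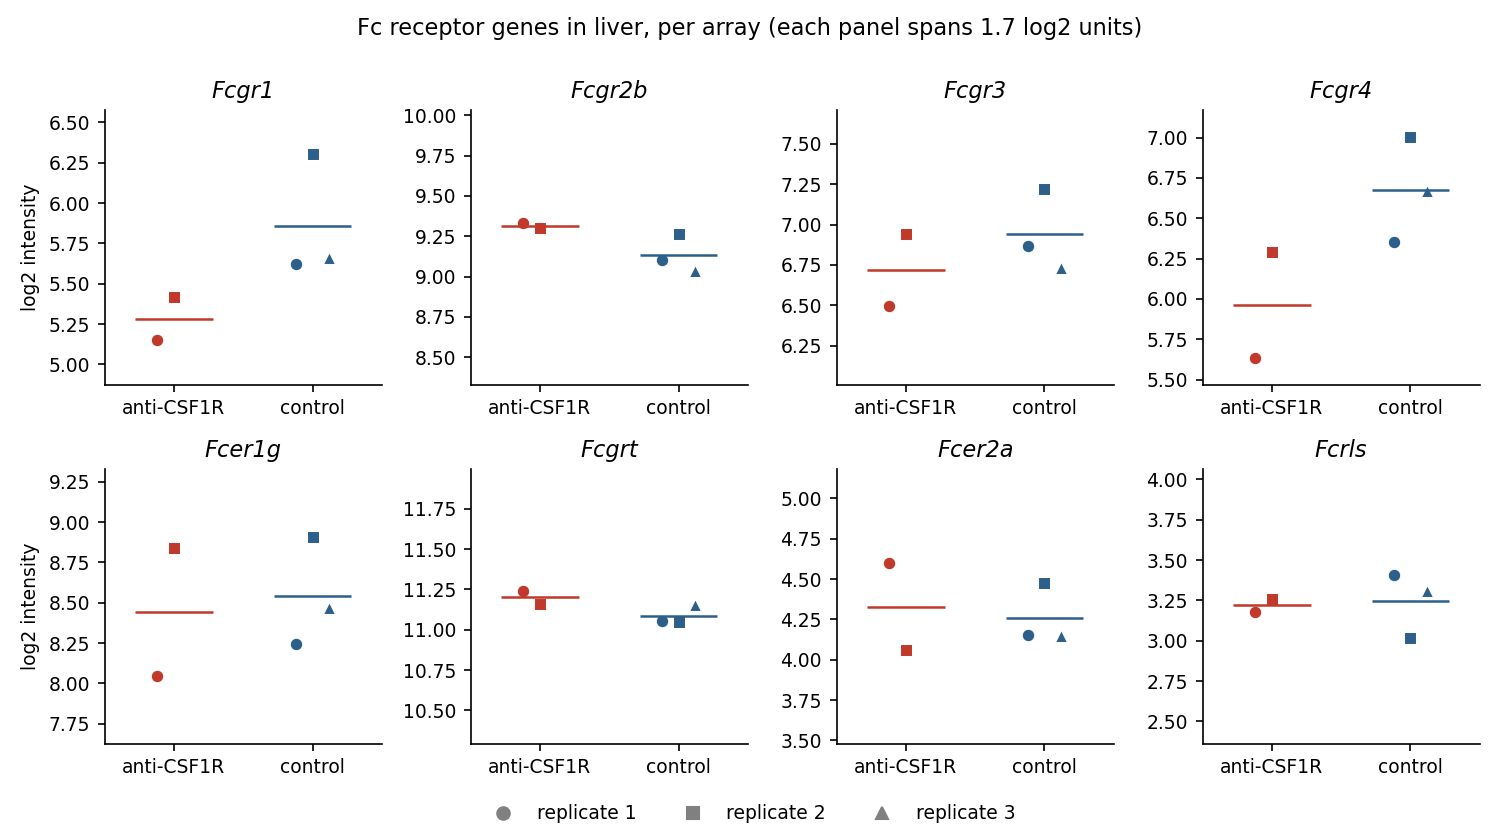
Log2 intensity of the 8 Fc receptor genes on each array, with anti-CSF1R livers left of control livers, symbols for replicate numbers and a line at each group's mean. Both anti-CSF1R points lie under all controls for Fcgr1 and Fcgr4 and above all controls for Fcgr2b and Fcgrt, while the other 4 genes overlap.

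Medians of the 5 arrays lay between 32.5 and 33.9 intensity units. The lower quartile was 13.4 and 12.8 in anti-CSF1R livers, against 11.9, 11.8 and 11.7 in control livers, and the upper quartile was 147.7 and 149.6 in anti-CSF1R livers, against 159.6, 163.5 and 164.3 in control livers. The quartiles thus separated the groups in opposite directions, and the part of this in the differences was not tested beyond the alternative normalizations. Hepatocyte transcripts such as Alb, encoding albumin, were bright on all of them (13.1 to 13.2 on the log2 scale). Csf1r itself was at 7.93 and 8.12 on the anti-CSF1R arrays and at 8.49, 8.68 and 8.61 on the controls, a difference of -0.56 ± 0.12 (SE; limma, adjusted p = 0.191). Control replicate 2 had the highest value of the 3 controls for 6 of the 8 Fc receptor genes, and Clec4e, an inducible receptor that signals through the Fcer1g chain, reached 6.91 there, against 3.08 and 2.99 on the other controls.

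Fcgr4 encodes an activating receptor of mouse monocytes, macrophages and neutrophils that binds IgG2a and IgG2b. Its log2 intensity was 5.63 and 6.29 on the anti-CSF1R arrays, against 6.35, 7.01 and 6.67 on the control arrays. The groups did not overlap, with a gap of 0.06 between the higher anti-CSF1R value and the lowest control. The difference was -0.71 ± 0.26 (SE), with a 95% interval of -1.36 to -0.07 and an adjusted p of 0.245 in limma. Without anti-CSF1R replicate 1 it was -0.39, without anti-CSF1R replicate 2 it was -1.04, and without control replicate 2 it was -0.55. With quantile normalization or cyclic loess the groups overlapped, at differences of -0.58 and -0.59.

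Fcgr1 encodes CD64, the high-affinity receptor for IgG. It was measured at 5.15 and 5.42 in anti-CSF1R livers and at 5.62, 6.30 and 5.66 in control livers. Both anti-CSF1R values lay under every control, and control replicate 2 stood apart from the other controls. The difference was -0.58 ± 0.23 (SE), with a 95% interval of -1.15 to -0.00219 and an adjusted p of 0.27 in limma. Without control replicate 2 it was -0.36.

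Fcgr3 encodes the low-affinity activating receptor CD16, found on macrophages, neutrophils and natural killer cells. Its values were 6.49 and 6.94 on the anti-CSF1R arrays, against 6.87, 7.22 and 6.73 on the controls, so the groups overlapped. The difference of -0.22 ± 0.20 (SE) had an interval of -0.72 to 0.27, which includes no change as well as the size seen for Fcgr1. It was -0.000143 without anti-CSF1R replicate 1, -0.45 without anti-CSF1R replicate 2 and -0.08 without control replicate 2.

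Fcer1g encodes the common gamma chain that Fcgr1, Fcgr3 and Fcgr4 need at the cell surface. It was at 8.04 and 8.84 on the anti-CSF1R arrays and at 8.24, 8.91 and 8.47 on the controls. One anti-CSF1R value was under all controls and the other above all but control replicate 2, and their range of 0.80 was larger than the control range of 0.67. The difference was -0.10 ± 0.29 (SE; limma, adjusted p = 0.859), with an interval of -0.81 to 0.62. It turned to 0.30 without anti-CSF1R replicate 1 and to 0.09 without control replicate 2.

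Within each group Fcgr4, Fcgr1 and Fcer1g put the arrays in the same order, and each activating receptor was also set against the adaptor within its array. This comparison was chosen after the values had been seen. Fcgr4 minus Fcer1g was -2.41 and -2.55 on the anti-CSF1R arrays, against -1.89, -1.90 and -1.79 on the controls. The 3 controls lay within 0.11 of each other on this scale, compared with 0.65 for Fcgr4 alone. The groups differed by -0.62, and by -0.69 to -0.50 over 9 alternative normalizations and left-out arrays. Median centring and leaving out an array cannot bring groups that are apart into overlap on this scale. With quantile normalization, cyclic loess and an offset of 16 the Fcgr4 groups stayed apart. Fcgr1 minus Fcer1g was -2.89 and -3.42 on the anti-CSF1R arrays and -2.62, -2.61 and -2.81 on the controls, also apart. This difference of -0.48 ranged from -0.74 to -0.21 over the same 9 alternatives, the smallest size being without anti-CSF1R replicate 2. The Fcgr1 groups stayed apart with quantile normalization and cyclic loess and overlapped with 16 units added before log2. Fcgr3 minus Fcer1g overlapped, at -1.55 and -1.90 on the anti-CSF1R arrays against -1.38, -1.69 and -1.74 on the controls. Of 18819 genes set against Fcer1g in this way, 0.739% had both anti-CSF1R arrays under all controls and 2.55% had both above. Fcer1g itself ranged over 0.80 on the anti-CSF1R arrays and 0.67 on the controls, so most genes cannot separate on this scale. These shares were not split by brightness and are no chance rate for genes chosen after their values were seen. A difference between probe sets within an array compares their intensities and does not show how many receptor or adaptor molecules there were. Whether receptor and adaptor changed unequally was not tested. With 2 against 3 arrays the smallest p of an exact permutation test is 0.1, and no such test was run.

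**Figure D2:**
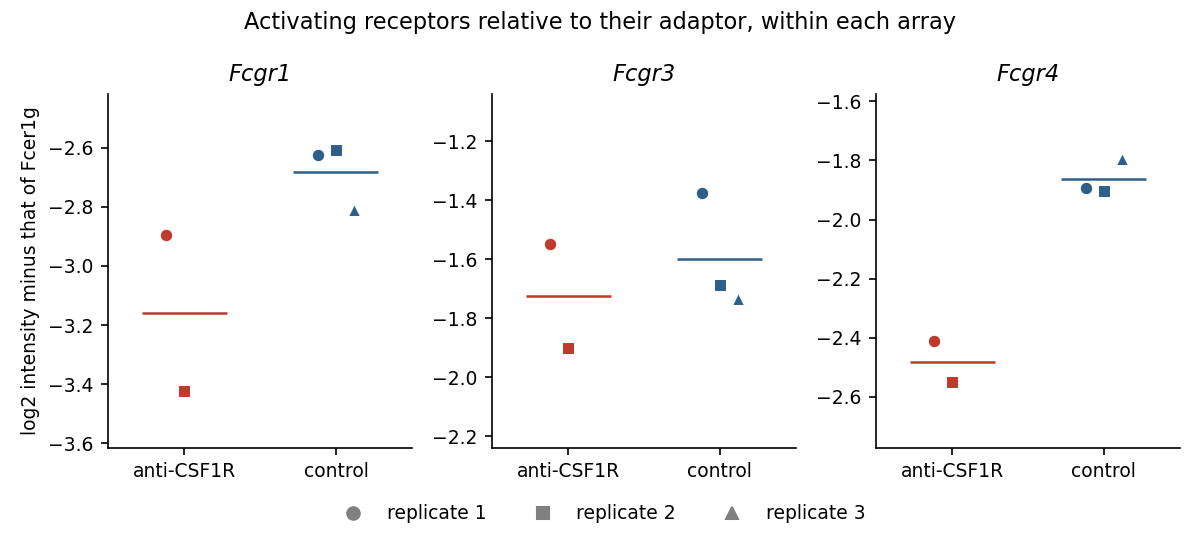
Log2 intensity of 3 activating receptors minus that of Fcer1g on the same array, for anti-CSF1R livers on the left and control livers on the right, with lines at group means. Fcgr4 shows the tightest controls, at -1.90 to -1.79, with both anti-CSF1R arrays at -2.41 or lower, while Fcgr3 overlaps between groups.

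Tyrobp encodes DAP12, an adaptor of similar design that serves other receptors of the same cells. Against it, Fcgr4 was at -2.18 and -2.48 in anti-CSF1R livers and at -1.85, -1.61 and -1.59 in control livers, and Fcgr1 was likewise lower in both anti-CSF1R arrays, where 0.77% of genes were and 2.37% were higher. Fcgr3 overlapped. Against Csf1r the 2 receptors did not separate: Fcgr4 minus Csf1r was -2.30 and -1.83 in anti-CSF1R livers, against -2.14, -1.67 and -1.93 in control livers, and Fcgr1 minus Csf1r was -2.78 and -2.70, against -2.87, -2.38 and -2.95. Fcgr3 minus Csf1r was higher in both anti-CSF1R arrays, by 0.34. Relative to Csf1r, 0.234% of genes lay lower on both anti-CSF1R arrays and 84.6% lay higher.

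Fcgr2b encodes the inhibitory IgG receptor, which B cells, macrophages and sinusoidal endothelial cells carry. It was at 9.33 and 9.30 in anti-CSF1R livers and at 9.10, 9.26 and 9.03 in control livers. Both anti-CSF1R values were higher than every control, with a gap of 0.04 to control replicate 2. The difference was 0.18 ± 0.12 (SE; limma, adjusted p = 0.404), with an interval of -0.10 to 0.47. Set against Fcgr2b within each array, all 3 activating receptors lay lower in both anti-CSF1R arrays than in any control, by -0.90 for Fcgr4, -0.76 for Fcgr1 and -0.41 for Fcgr3. On that scale 36.4% of all genes lay lower in both anti-CSF1R arrays and 4.84% lay higher.

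Fcgrt encodes the heavy chain of FcRn, the receptor that protects IgG and albumin from degradation. It was measured at 11.24 and 11.16 in anti-CSF1R livers, against 11.06, 11.05 and 11.15 in control livers. The gap between the groups was 0.01, and the difference of 0.11 ± 0.10 (SE; limma, adjusted p = 0.539) had an interval of -0.14 to 0.37. With quantile normalization or cyclic loess the Fcgrt groups overlapped as well. B2m, the light chain that FcRn shares with class I molecules, was at 12.39 and 12.47 in anti-CSF1R livers and at 12.31, 12.29 and 12.30 in control livers, a difference of 0.13 ± 0.10 (SE; limma, adjusted p = 0.471). Alb, the other cargo of FcRn, differed by 0.00105 ± 0.10 (SE), with an interval of -0.25 to 0.26. Its probe set was at the 99.97th percentile of all probe sets.

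Fcer2a encodes CD23, the low-affinity IgE receptor of B cells and a lectin rather than an immunoglobulin-like receptor. It was at 4.60 and 4.06 in anti-CSF1R livers, against 4.15, 4.47 and 4.14 in control livers. The 2 anti-CSF1R values lay outside the controls on opposite sides. The difference of 0.07 ± 0.20 (SE) had an interval of -0.41 to 0.56, and it was -0.20 without anti-CSF1R replicate 1. Fcrls encodes a scavenger-like relative of the Fc receptors that is known in mouse as a microglial marker. It was at 3.18 and 3.26 in anti-CSF1R livers, against 3.41, 3.02 and 3.31 in control livers, with overlapping groups and a difference of -0.03 ± 0.15 (SE). Its probe set was dimmer than most, at the 16.7th percentile of all probe sets, where a change in transcript amount would be hard to see.

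**Figure D3:**
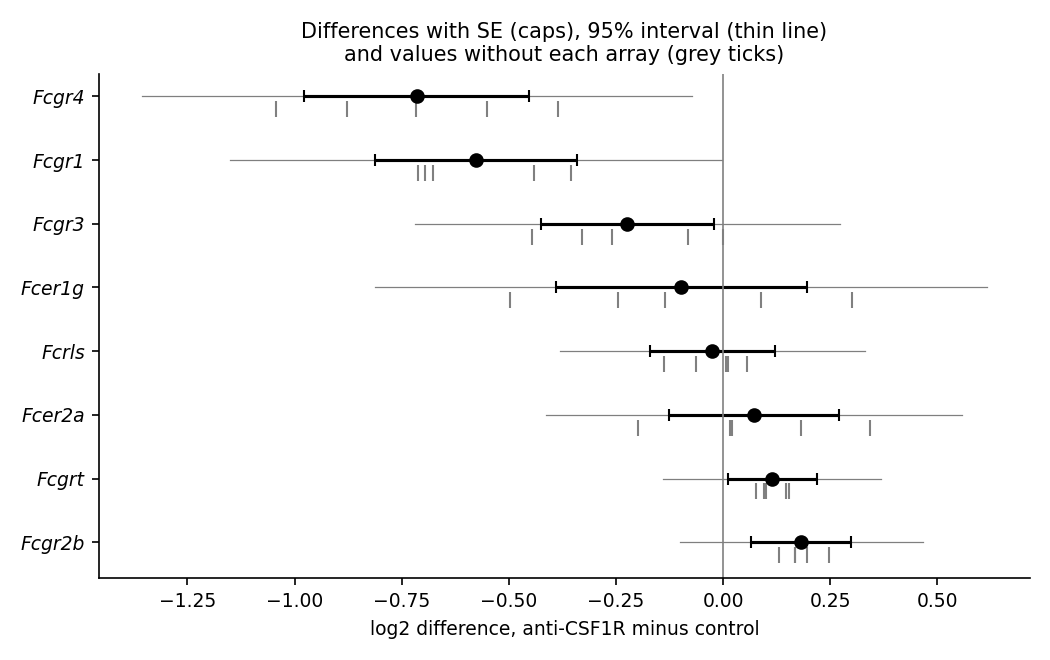
Log2 difference, anti-CSF1R minus control, for each Fc receptor gene, with SE as capped bars, the 95% interval as a thin line and the values without each array as grey ticks below. The differences run from -0.71 for Fcgr4 to 0.18 for Fcgr2b, and the intervals of Fcgr4 and Fcgr1 alone leave out 0.

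Among the 8 genes the most similar profiles over the 5 arrays were those of Fcgr2b and Fcgrt, with a Euclidean distance of 0.25 between their log2 deviations from their own means, followed by Fcgrt and Fcrls (0.33), Fcgr1 and Fcgr4 (0.397) and Fcgr3 and Fcer1g (0.397). Distances between genes of small spread are small in any case. Of the 4 genes on chromosome 1, Fcgr4 and Fcgr2b differed in opposite directions, and the 5 other measured genes between Fcgr2b and Fcer1g had differences of 0.10 to 0.32. Of 9409 other genes brighter than the median gene, those nearest to Fcer1g were Ly86 at a distance of 0.132, Mtnr1a at 0.144, Plekhf1 at 0.146, Folr2 at 0.176 and Lyrm2 at 0.188, where the median gene stood at 0.784. Ly86 encodes MD-1, an accessory protein of a Toll-like receptor relative on B cells and macrophages, and Folr2 encodes the folate receptor of macrophages. Fcgr3 ranked 85th in nearness to Fcer1g, while Fcgr1 and Fcgr4 ranked 2061st and 2565th. With 5 arrays such nearness is a description of these arrays.

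**Figure D4:**
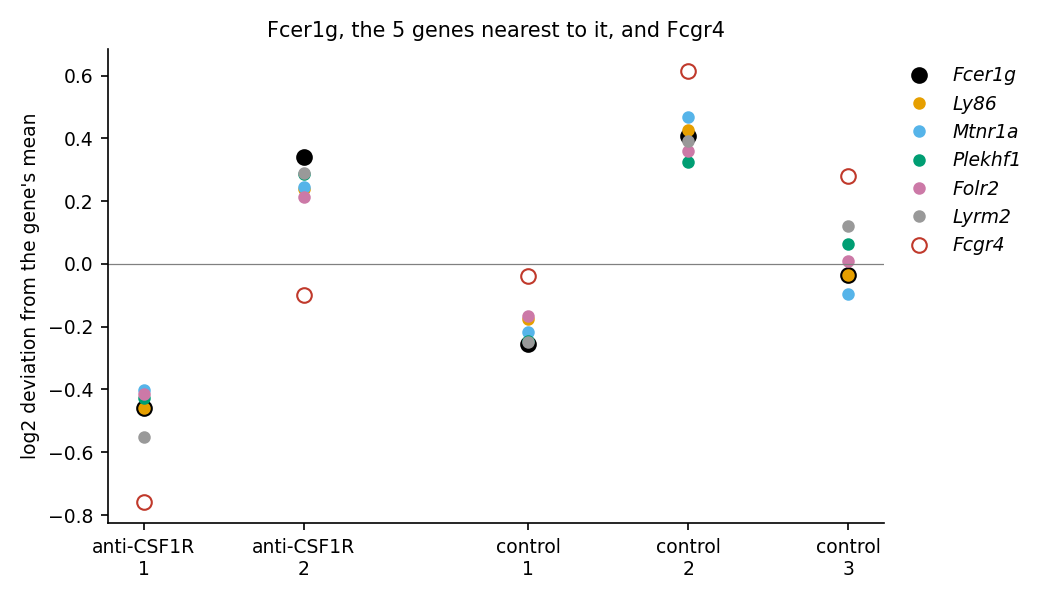
Log2 deviation from each gene's own mean on the 5 arrays for Fcer1g, the 5 genes nearest to it and Fcgr4. Fcer1g and its nearest genes are lowest on anti-CSF1R replicate 1 and highest on control replicate 2, and Fcgr4 lies under them on both anti-CSF1R arrays and above them on all 3 controls.

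Genes listed for activating signalling, phagocytosis and the oxidase lay mostly lower in anti-CSF1R livers, and none passed limma's test after adjustment. The activating list also holds adaptors of other receptors, Tyrobp among them. Of all 18820 genes, 8230 were lower and 10590 higher, with a median of -0.10 over brighter genes. Of 17 measured genes of activating signalling, 15 were lower and 2 higher, with 0 called, 8 apart and lower, against 19.5% of all genes, and 0 apart and higher, against 25.1%. Their median difference was -0.24. Of these, 12 were in the brighter set, with 5 apart and lower, against 32.6% of brighter genes, and a median of -0.22, against -0.10 over brighter genes. Among the 5 in the dimmer set, 3 were apart and lower, against 3.01% of dimmer genes. Their median was -0.33, against 0.17 over dimmer genes. Btk, a kinase activated after receptor engagement, was at 3.74 and 3.61 in anti-CSF1R livers, against 3.96, 4.43 and 4.22 in control livers (-0.53 ± 0.16, SE; limma, adjusted p = 0.215). Its probe set was dim. Vav3, a signalling protein that acts after receptor engagement, differed by 0.20 ± 0.13. Of 14 measured genes of phagocytosis and the NADPH oxidase, 13 were lower, 0 were called and 7 were apart and lower, with a median of -0.23. All 14 were in the brighter set, where 32.6% of genes were apart and lower. The engulfment gene Elmo1 was at 5.22 and 5.57 in anti-CSF1R livers and at 5.90, 6.02 and 5.82 in control livers (-0.52 ± 0.14, SE; limma, adjusted p = 0.203). Cyba, an oxidase subunit, was the 1 higher gene of that group, at 0.09 ± 0.27.

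Of 13 genes of inhibitory signalling, 11 were lower, 0 were called and 3 were apart and lower, with a median of -0.135. The 3 were among 11 in the brighter set, a share near the 32.6% of brighter genes. Cd72, an inhibitory receptor of B cells and some macrophages, was at 4.97 and 5.44 in anti-CSF1R livers, against 6.03, 6.50 and 6.01 in control livers (-0.97 ± 0.21, SE; limma, adjusted p = 0.192), and the ubiquitin ligase Cblb differed by 0.16 ± 0.14. Other receptors that pair with the Fcer1g chain showed no common direction: of 5 measured, 2 were lower and 3 higher, with 0 called, 0 apart and lower, 1 apart and higher, and a median of 0.05. The higher one was Oscar, an activating receptor of myeloid cells (0.15 ± 0.10), and 4 of the 5 were in the dimmer set, where 45.9% of genes were apart and higher. Clec4e differed by -1.37 ± 1.19, or by -0.08 without control replicate 2. Of 11 other Fc receptor genes, 3 were lower and 8 higher, with 0 called, 1 apart and lower, 2 apart and higher, and a median of 0.16. The 2 higher ones were among 8 in the dimmer set, where 45.9% of all genes were apart and higher and the median difference of all genes was 0.17. The lower one, Pigr, was among 3 in the brighter set, where 32.6% of all genes were apart and lower. Pigr carries IgA across epithelium and was at 11.23 and 10.62 in anti-CSF1R livers against 11.41, 11.36 and 11.44 in control livers (-0.48 ± 0.19, SE; limma, adjusted p = 0.262). Fcrl5, a receptor of B cells, was at 3.36 and 3.65 in anti-CSF1R livers against 3.10, 2.82 and 2.94 in control livers (0.55 ± 0.14, SE; limma, adjusted p = 0.196), with a dim probe set.

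**Figure D5:**
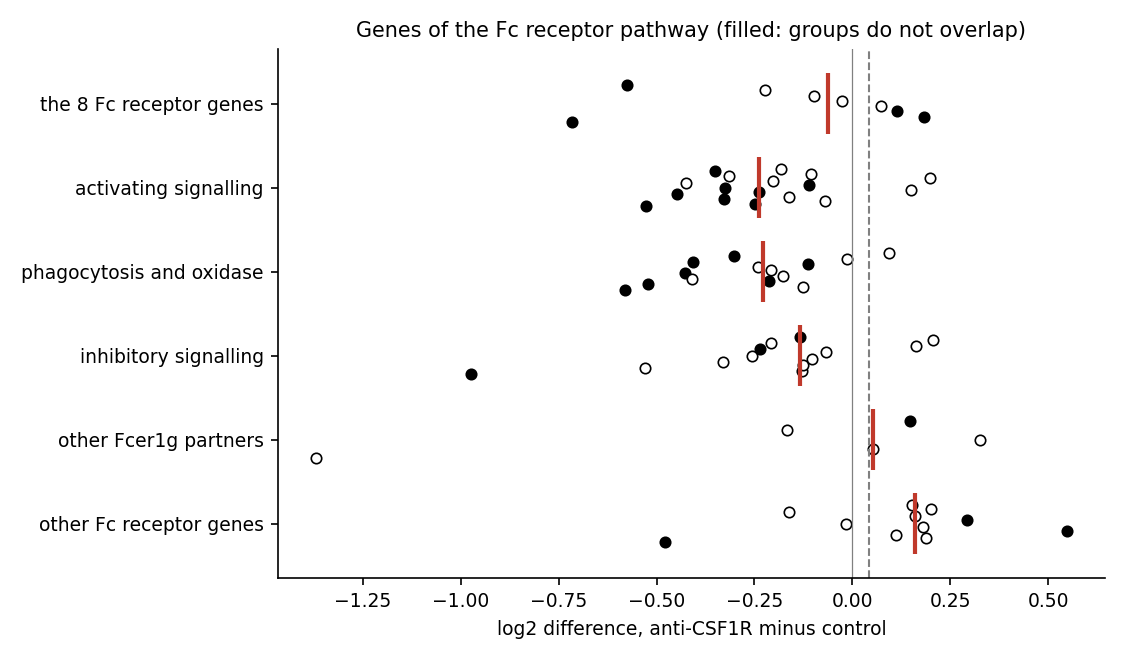
Log2 difference, anti-CSF1R minus control, of every measured gene in 6 groups of the Fc receptor pathway, with filled points where the groups did not overlap, a red bar at each median and a dashed line at the median of all genes, which was -0.10 over brighter genes alone. Activating signalling and phagocytosis genes centre on -0.24 and -0.23, and other Fc receptor genes on 0.16. Of those other Fc receptor genes, 8 were in the dimmer set, where the median of all genes was 0.17.

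In whole liver, fewer cells of a type and less RNA per cell cannot be told apart. Markers of the cells that carry these receptors were summed on each array for comparison. Kupffer cell markers had a summed intensity of 2530 to 3406 in anti-CSF1R livers, against 2973 to 3506 in control livers, so the groups overlapped. Of these 9 markers, 6 were lower and 3 higher, 0 were called over all probe sets, and the median difference was -0.17. All were in the brighter set, where 32.6% of genes were apart and lower and 8.64% apart and higher. The 2 apart and lower were Cd163 (-0.80 ± 0.16 SE, limma adjusted p = 0.188) and Adgre1 (-0.48 ± 0.18 SE, limma adjusted p = 0.252). The 1 apart and higher was Marco, a scavenger receptor, which was 1.34 higher. With 1 probe set per gene, limma called only Marco of the 9 (adjusted p = 0.0296). Cd163, Adgre1 and Marco are named after their values were seen. The summed intensity of 6 monocyte markers was 266.4 to 431.4 in anti-CSF1R livers and 274.0 to 496.6 in control livers, with a median difference of -0.00256. This sum moved with Nr4a1, which ranged from 32.2 to 296.4 intensity units over the 5 arrays. Of the 6, 1 was apart and lower and 2 were apart and higher. All of these were in the dimmer set, where 3.01% of genes were apart and lower and 45.9% apart and higher. The lower one, Cx3cr1, a chemokine receptor, differed by -0.57 ± 0.14 (SE, limma adjusted p = 0.193). The higher ones, Ccr2 and Ace, differed by 0.09 ± 0.10 and 0.07 ± 0.10 (SE). Cx3cr1, Ccr2 and Ace are named after their values were seen. Neutrophil markers summed to 150.7 to 165.1 in anti-CSF1R livers and to 126.6 to 148.2 in control livers, with 4 of 7 apart and higher and 0 apart and lower. The 4 were among 6 in the dimmer set, where 45.9% of genes were apart and higher. Natural killer cell markers summed to 76.0 to 76.7 in anti-CSF1R livers and to 68.99 to 70.67 in control livers. Of 6, all in the dimmer set, 2 were apart and higher, against 45.9% of dimmer genes. Their median difference was 0.12, against 0.17 over all dimmer genes. Sinusoidal endothelial markers, beside Fcgr2b, summed to 5177 to 5466 in anti-CSF1R livers and to 5053 to 5285 in control livers. Of 10, all in the brighter set, 2 were apart and lower and 2 apart and higher, against 32.6% and 8.64% of brighter genes. B cell markers, beside Fcer2a, summed to 187.1 to 248.9 in anti-CSF1R livers and to 238.6 to 283.1 in control livers, with a median difference of -0.01 over 6 genes. Their differences ran from -0.96 to 0.39. Of 4 in the brighter set 1 was apart and lower, against 32.6% of brighter genes. Of 2 in the dimmer set 1 was apart and higher, against 45.9% of dimmer genes. None of these markers was listed at 0. The part of cell numbers in the receptor differences was not tested.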

How the data were processed

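Liver RNA of each sample was hybridised to 1 expression array, per the labels' protocols. The authors deposited a linear intensity for each probe set. The submitters' processing notes name Affymetrix Expression Console 1.1; its settings for background and normalization were not recorded in them, and a shift of level between arrays may remain. Log2 of the deposited intensity was used unfiltered. Platform annotation, which can be old, gave 1 symbol to 21218 of 35556 probe sets, several to 1881, and did not list 12457. For each of 18820 genes the probe set of highest mean was used; the 8 Fc receptor genes had 1 each. Groups followed the labels. Differences were tested two-sided with limma 3.58.1 (R 4.3.3), using lmFit, eBayes and the Benjamini-Hochberg method across all probe sets, on 3 residual and 3.03 prior degrees of freedom; the code was tested on simulated data. The number of arrays limits the precision.

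The members, gene lists and tests were chosen with earlier results of these data known. Genes named outside the 8 are Csf1r, B2m and Alb, and the gene of smallest p in each direction of each pathway list. The 5 genes nearest to Fcer1g are named as well. Tyrobp, Marco, Cd163, Adgre1, Cx3cr1, Ccr2, Ace and Nr4a1 were named after their values were seen. Lists are described by counts and medians, with no set test, and were also split at the median level of all probe sets after the counts had been seen. The alternatives were quantile normalization, cyclic loess, median centring, an offset of 16, 2 filters on dim probe sets, 1 probe set per gene, a trended robust variance, weights for arrays, a block for the replicate number, and each array left out. Python 3.11.15 and matplotlib 3.10.9 drew the figures.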

Additional observations from a re-analysis of the deposited data

How the results depend on the processing

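No Fc receptor gene passed under any alternative that kept both anti-CSF1R arrays. The sign of the difference held in all 16 alternatives for Fcgr4 (-1.04 to -0.39) and Fcgr1 (-0.71 to -0.36). It also held for Fcgr2b (0.13 to 0.28) and Fcgrt (0.06 to 0.21). The 16 include the alternative relative to Fcer1g, which was chosen after seeing the data. Using 1 probe set per gene, the trended robust variance and the 2 filters cannot change a gene's difference. The replicate block gave the same differences as leaving out control replicate 3. With quantile normalization and with cyclic loess, 1 gene was apart and lower (Fcgr1) and 1 apart and higher (Fcgr2b), so Fcgr4 and Fcgrt overlapped, where 14.8% and 17.0% of all genes were apart and lower and 19.0% and 16.6% apart and higher; the cause was not tested. When 1 array was left out, 2 to 4 genes were apart and lower and 2 to 3 apart and higher. Leaving out an array cannot bring groups that are apart into overlap, so these counts could not fall. The shares of all genes were then 22.5% to 31.2% lower and 29.9% to 40.5% higher, and the median difference ran from -0.25 to 0.00603. Fcer1g then ran from -0.50 to 0.30, Fcer2a from -0.20 to 0.34 and Fcrls from -0.139 to 0.0552; Fcer1g was positive without anti-CSF1R replicate 1 (0.30) and without control replicate 2 (0.0875). Fcer2a turned to -0.0518 with cyclic loess, -0.0141 with quantile normalization and -0.20 without anti-CSF1R replicate 1. Fcrls turned to 0.0122 with median centring, 0.0719 relative to Fcer1g, and above 0 without anti-CSF1R replicate 1, control replicate 1 or control replicate 3. Same-numbered arrays did not deviate together (r = 0.03 for both pairs), and with the replicate number as a block Fcrls was at 0.00679, the median at -0.06, and 0 genes passed. Averaging probe sets of a gene gave no other value, since each had 1. Without probe sets under the median, Fcer2a and Fcrls were not tested, and 32.6% of genes were apart and lower and 8.64% apart and higher.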
